A study of Homo sapiens with 6 samples.

Results

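The 10 genes described here encode 7 subunits of the NuRD complex (CHD4, MTA1, MTA2, MBD3, HDAC1, HDAC2 and RBBP4) and the 3 catalytically active DNA methyltransferases (DNMT1, DNMT3A and DNMT3B). They were taken by gene symbol from a table of 28008 genes, and all 10 were found. The cells were DU-145-DR/tet-MUC1shRNA cells, a DU-145 prostate cancer line selected for docetaxel (DTX) resistance and carrying a doxycycline (DOX)-inducible hairpin against MUC1 under puromycin selection. The 3 DOX-negative cultures received 0.1% DMSO as vehicle, and the 3 DOX-positive cultures received 500 ng/ml DOX. Exposure lasted a week. Since the treatment label mentions tet-MUC1shRNA in the DOX-positive samples alone, its presence in DOX-negative cells was taken from the series' design text. A library with DOX and a control hairpin was not analysed here, so silencing of MUC1 and exposure to DOX cannot be told apart. The cultures were of 1 resistant line and 1 hairpin, and the p-values measure the spread between these cultures.

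NuRD couples an ATP-dependent nucleosome remodeller to histone deacetylation within a single complex. CHD4, or its paralog CHD3 or CHD5, moves nucleosomes. MTA proteins scaffold the deacetylases HDAC1 and HDAC2 together with the histone-binding proteins RBBP4 and RBBP7, and MBD2 or MBD3 links this module to the remodeller through GATAD2A or GATAD2B. MBD2 binds methylated CpG, whereas mammalian MBD3 has lost most of that affinity, and the 2 occur in separate NuRD complexes. Of the DNA methyltransferases, DNMT1 copies methylation onto newly made DNA during replication, with UHRF1 bringing it to hemimethylated sites. DNMT3A and DNMT3B place methylation on sites that carried none. The data are mRNA levels and hold no measurement of complex assembly, protein or DNA methylation.

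Libraries held 15092691 to 23243713 counts. MUC1 counts were 387, 484 and 396 without DOX and 75, 74 and 66 with DOX (log2 fold change −2.52, SE 0.146, edgeR adjusted p = 4.47e-11). Epithelial KRT8, KRT18, KRT19 and EPCAM and the mesenchymal filament gene VIM were expressed in every library, and the first 4 rose in DOX-positive cells by 0.81 to 1.43 on the log2 scale. KLK3, CHGA and INSM1, markers of the other lines of the study, had 0 counts in all 6 libraries, and the leukocyte marker CD3E also had 0. The 8 markers of leukocytes, endothelium and fibroblasts summed to between 4.91 and 5.34 CPM (counts scaled to library size) without DOX and between 5.05 and 6.16 CPM with DOX, most of it COL1A1. Of 14292 genes tested, 13.7% were lower and 13% higher in DOX-positive cells (edgeR adjusted p under 0.05), which is the background for the counts of members given below. Between 34.4% and 64.4% of the deposited TPM, a length-corrected level, came from 5 short RNAs (of 7SL, 7SK and RNase P), with the low value in DOX-negative replicate 2. Levels are therefore given as CPM scaled by trimmed mean of M values, or as TPM rescaled without these 5 RNAs.

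Short sequences are shown first for the members in which they occur, since they are features that the choice of members did not use. The first set is the heptamer ATCAGTA in 3′UTRs, in capitals with its flanks in lower case (GENCODE 29, GRCh38, written 5′ to 3′ on the strand of the gene).
HDAC2: taaacagaaATCAGTAacacttagt
RBBP4: tgcattgagATCAGTAtcaacagca
DNMT3A: gcagcaaaaATCAGTAacaaaaaat
DNMT3B: ttaattaaaATCAGTAtttgtcta
These stretches lie at chr6:113938806-113938830 on the minus strand for HDAC2, chr1:32681604-32681628 on the plus strand for RBBP4, chr2:25233885-25233909 on the minus strand for DNMT3A and chr20:32809333-32809356 on the plus strand for DNMT3B. The 3′UTR of HDAC2 held 2 copies, of which the first is shown, and the other 3 genes held 1 copy each. No copy was found in the annotated 3′UTR of CHD4, MTA1, MTA2, MBD3, HDAC1 or DNMT1. The heptamer came from an earlier scan of fold changes in these same libraries, so its relation to them is not independent. Across 12085 tested genes with a 3′UTR, 10.0% held it, with a median log2 fold change of −0.11 against 0.0016 for the others. Of the genes with the heptamer 32.6% were called lower, against 13.2% of those without it. These groups were not matched for 3′UTR length, and a longer 3′UTR has more positions at which a heptamer can occur. The 3′UTR read was 8030 bases long in HDAC2, 6506 in RBBP4, 6424 in DNMT3A and 1453 in DNMT3B. Members without a copy had from 321 bases (DNMT1) to 1486 bases (MBD3). Whether the heptamer goes with lower calls at equal 3′UTR length was not tested.

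The second set is the E-box CACGTG, a palindrome that MYC and related factors can bind, in the 300-base promoter windows of RefSeq (GRCh38.p14). It is shown for the 2 members whose windows held it. Both were called lower below, and whether the E-box goes with lower calls was not tested.
RBBP4: ccaaacctctctCACGTGaccctgaccggg
DNMT3A: tccagcggggccCACGTGacctggagtcct
The RBBP4 stretch lies at chr1:32650959-32650988 on the plus strand, and the DNMT3A stretch at chr2:25252373-25252402 on the minus strand, at an internal start of the gene. All 10 members matched, with 17 windows, and RBBP4 and DNMT3A were the 2 members with an E-box, in 3 of these windows. The DNMT3A windows with an E-box overlap and share the same site. The E-box occurred in 7.26% of all 35116 windows, which is a share of windows and not of genes. A gene with several windows has more positions at which it can occur, and the share of genes was not computed. The E2F words TTTCCCGC and TTTGGCGC, searched on both strands, were in none of the members' windows, against 1.63% and 0.652% of all windows. The member windows held 18 to 46 CpG dinucleotides, with the exception of the DNMT3B window with 3, against a median of 14 over all windows. That DNMT3B window (chr20:32779602-32779901) lies inside the gene and not at its annotated start at 32762385. These matches describe letters and not bound sites.

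Of the 10 members, DNMT3A, MBD3 and RBBP4 were lower in DOX-positive cells and none was higher. DNMT3A had about 48.2% of its DOX-negative mean CPM in DOX-positive cells, MBD3 81.3% and RBBP4 86.7%. All 10 fitted changes lay below 0, with a median of −0.14 on the log2 scale, against −0.0034 over all genes tested, whose quartiles were −0.20 and 0.19. The 3 members called lower made up 30% of the list, beside 13.7% of all genes, and these 3 each had every DOX-positive value below every DOX-negative value, beside 20.2% of all genes. Values of the other 7 overlapped between the groups. DOX-positive replicate 2 was the lowest library for 6 of the 10 members, and DOX-negative replicate 2 was the highest for 6, and values without a library are given beside the genes whose call or size rests on it.

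**Figure D1:**
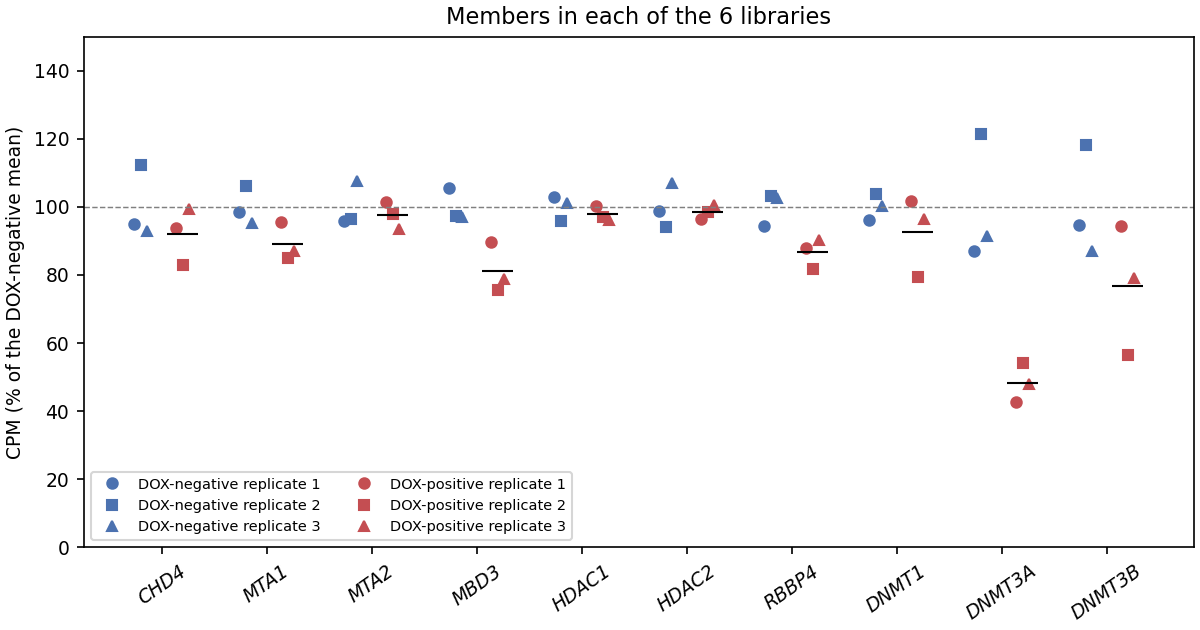
CPM of each member in each library, as a percentage of its DOX-negative mean (vertical axis), with DOX-negative libraries in blue, DOX-positive libraries in red and the DOX-positive mean as a black line. DNMT3A stands apart at a DOX-positive mean of 48.2%, followed by DNMT3B at 76.8%, whose libraries overlap, and MBD3 at 81.3%, whose libraries do not.

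DNMT3A, a de novo methyltransferase encoded at chr2:25227855-25342590 on the minus strand, gave the largest change among the members. Its counts were 228, 342 and 265 without DOX and 141, 149 and 103 with DOX, or 12.5, 17.5 and 13.2 CPM against 6.14, 7.78 and 6.92 CPM. The highest DOX-positive value was well under the lowest DOX-negative one. DNMT3A fell by 1.06 on the log2 scale (SE 0.151, 95% interval −1.37 to −0.74, edgeR adjusted p = 1.77e-05), and 1.55% of all genes tested fell at least as far. The call held in all 15 alternative settings, with log2 fold changes between −1.36 and −0.87. DNMT3A holds 1 heptamer copy and an E-box, as printed above, and no other annotated exon overlaps its exons. Counts were per gene, so its long and short isoforms were not separated.

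DNMT3B, the other de novo enzyme (chr20:32762385-32809356, plus strand), was the least abundant member. Its counts were 108, 145 and 110 in DOX-negative and 136, 68 and 74 in DOX-positive libraries, which is 5.94, 7.41 and 5.47 CPM against 5.93, 3.55 and 4.98 CPM. DOX-positive replicate 1 was at the level of the DOX-negative libraries and the other 2 were below them. The log2 fold change was −0.37 (SE 0.196, 95% interval −0.78 to 0.032, edgeR adjusted p = 0.167), and the interval holds 0 as well as a fall of 0.78. With DOX-positive replicate 2 left out the value was −0.19, and with replicate 1 of that group left out it was −0.57. The log2 ratio of DNMT3A to DNMT3B TPM was 0.78 ± 0.10 in DOX-negative and 0.14 ± 0.54 in DOX-positive libraries (SD, n = 3), with an exact permutation p of 0.2 (two-sided, 0.28 adjusted over 7 pairs). The ratios overlapped, since DOX-positive replicate 2, the lowest for DNMT3B, had a ratio of 0.72. A fall particular to DNMT3A among the 2 de novo enzymes was therefore not shown.

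DNMT1, the maintenance enzyme (chr19:10133345-10231286, minus strand), was the most abundant of the 3. It had 276, 298 and 289 CPM in DOX-negative and 293, 228 and 278 CPM in DOX-positive libraries. Only DOX-positive replicate 2 lay below the DOX-negative values. The log2 fold change was −0.11 (SE 0.0755, 95% interval −0.27 to 0.045, edgeR adjusted p = 0.297), and −0.012 without that library. An exon of S1PR2 overlaps DNMT1 on the same strand. DNMT1 made up 93.4% ± 0.869 of the rescaled TPM of the 3 enzymes in DOX-negative and 95.7% ± 0.306 in DOX-positive cells (SD, n = 3), while the DNMT3A share went from 3.80%, 4.84% and 3.84% to 1.80%, 2.90% and 2.13%. The low DNMT1 value in DOX-positive replicate 2 went with low values of replication genes in the same library, described below.

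Among the NuRD members, MBD3 gave the largest change. The gene lies at chr19:1573596-1592801 on the minus strand, with exons of AC005943.1 on the same strand. Its levels were 45.3, 41.8 and 41.6 CPM in DOX-negative and 38.4, 32.4 and 33.9 CPM in DOX-positive libraries, with no overlap. MBD3 fell by 0.30 on the log2 scale (SE 0.0877, 95% interval −0.48 to −0.11, edgeR adjusted p = 0.0154). The call was lost without DOX-negative replicate 1 (adjusted p = 0.0870), DOX-positive replicate 2 (0.0533) or DOX-positive replicate 3 (0.0593), and by limma on TPM that was not rescaled (0.192 and 0.194).

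MBD2, the methyl-CpG-binding alternative to MBD3, had 224, 177 and 235 CPM in DOX-negative and 230.3, 253 and 222 CPM in DOX-positive libraries. The fitted log2 change of 0.15 (SE 0.0830, edgeR adjusted p = 0.193) did not pass the threshold and was below 0 on TPM that was not rescaled. Without DOX-negative replicate 2, the library at 177 CPM, it was 0.037. MBD3 took 32.8%, 36.2% and 29.9% of the summed rescaled TPM of the pair in DOX-negative libraries, and 28.7%, 23.5% and 26.9% in DOX-positive libraries. The shares did not overlap. The log2 ratio of MBD3 to MBD2 differed by −0.46, with an exact permutation p of 0.1, the smallest that 3 against 3 libraries allow, and 0.175 after adjustment over 7 pairs.

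RBBP4, a WD-repeat protein that holds histone H4 and also serves the SIN3, PRC2 and CAF-1 complexes, was the other NuRD member called lower. The gene lies at chr1:32651142-32686211 on the plus strand, and 6 annotated pseudogenes carry its name, so some of its reads may have been placed elsewhere. SYNC overlaps its exons in antisense. It had 298, 326 and 324 CPM in DOX-negative and 278, 258 and 286 CPM in DOX-positive libraries, and the groups did not overlap. RBBP4 fell by 0.21 on the log2 scale (SE 0.0634, 95% interval −0.34 to −0.075, edgeR adjusted p = 0.0188). The call was lost with the replicate number as a block (adjusted p = 0.0533), without DOX-negative replicate 2 (0.0523) or 3 (0.0601), without DOX-positive replicate 2 (0.0708), and on TPM that was not rescaled (0.224 and 0.234).

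RBBP7, its close paralog, stood at 172, 165 and 173 CPM in DOX-negative and 178, 169 and 181 CPM in DOX-positive libraries (log2 fold change 0.046, edgeR adjusted p = 0.632, and below 0 on TPM that was not rescaled). RBBP4 took 31.9%, 34.8% and 33.7% of the rescaled TPM of the pair in DOX-negative and 29.7%, 29.3% and 30.0% in DOX-positive libraries. The log2 ratio of RBBP4 to RBBP7 differed by −0.25 (exact permutation p = 0.1, adjusted 0.175). The groups were separate, but the design could not take this p below 0.1.

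The remodeller CHD4 (chr12:6570082-6614524, minus strand, with exons of AC006064.6 on the same strand) had 225, 266 and 220.3 CPM in DOX-negative and 223, 197 and 236 CPM in DOX-positive libraries. The groups overlapped, and the log2 fold change was −0.12 (SE 0.0769, 95% interval −0.28 to 0.040, edgeR adjusted p = 0.272). With DOX-negative replicate 2 left out it was −0.027, and leaving out DOX-positive replicate 2 gave −0.050. CHD3, the alternative remodeller, fell by 0.28 (SE 0.0849, edgeR adjusted p = 0.0165), from 69.1 ± 7.31 to 56.9 ± 4.35 CPM (SD, n = 3). This call was lost without DOX-negative replicate 2 (adjusted p = 0.111) or DOX-positive replicate 1 (0.0640) and by limma on rescaled TPM (0.0764). CHD4 made up 79.6% to 79.9% of the CHD transcripts in DOX-negative and 80.5% to 82.2% in DOX-positive libraries. The log2 ratio of CHD4 to CHD3 differed by 0.16 (exact permutation p = 0.1, adjusted 0.175). CHD5, a remodeller known mainly from neurons and testis, had 1.08 to 2.66 CPM.

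The scaffold MTA1 (chr14:105419820-105470729, plus strand, with exons of TEX22 on the same strand) had 111, 119.7 and 108 CPM in DOX-negative and 108, 95.8 and 98.0 CPM in DOX-positive libraries. The highest DOX-positive value just exceeded the lowest DOX-negative one. Its log2 fold change of −0.17 (SE 0.0709, 95% interval −0.31 to −0.018) had an unadjusted p of 0.0293 and missed the threshold after adjustment (edgeR adjusted p = 0.0890), and it passed with scaling by total counts (0.0427). MTA2 (chr11:62593214-62601840, minus strand), the main scaffold by level at 53.2% to 58.4% of MTA transcripts, had 198, 199 and 222 CPM against 209, 202 and 193 CPM. Its log2 fold change was −0.034 (95% interval −0.17 to 0.10, edgeR adjusted p = 0.754). MTA3 had 66.6, 67.3 and 70.5 CPM against 58.7, 62.4 and 58.0 CPM, with a log2 fold change of −0.19 that did not pass (edgeR adjusted p = 0.0564) although its groups did not overlap, and that passed without DOX-positive replicate 2 (0.0341).

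The deacetylases had the smallest fitted changes of the members. HDAC1 (chr1:32292086-32333635, plus strand) had 99.7, 93.0 and 98.1 CPM in DOX-negative and 97.2, 94.2 and 93.2 CPM in DOX-positive libraries, a log2 fold change of −0.031 with a 95% interval of −0.17 to 0.11 (edgeR adjusted p = 0.787). HDAC2 (chr6:113933028-114011308, minus strand) had 126, 120.2 and 136 CPM against 123, 125 and 128 CPM, a log2 fold change of −0.022 with a 95% interval of −0.16 to 0.12 (edgeR adjusted p = 0.847). Falls beyond 0.17 thus lay outside both intervals. The name of HDAC1 is carried by 2 annotated pseudogenes, so some of its reads may have been placed elsewhere. HDAC2, whose 3′UTR held 2 copies of the heptamer, was not called. HDAC1 supplied 72.6% to 74.4% of the pair's rescaled TPM over all 6 libraries, and the log2 ratio of HDAC1 to HDAC2 differed by −0.010 (exact permutation p = 0.9).

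GATAD2A and GATAD2B, which bridge the deacetylase module to CHD4, went opposite ways in sign. GATAD2A rose by 0.26 (SE 0.0656, edgeR adjusted p = 0.00543), from 203, 216 and 204 CPM to 264, 227 and 253 CPM, although its fitted value was −0.14 on TPM that was not rescaled. GATAD2B had 216, 215 and 198 CPM against 174, 195 and 191 CPM, a log2 fold change of −0.17 that missed the threshold (edgeR adjusted p = 0.0647) and passed without DOX-negative replicate 3 (0.0393) or DOX-positive replicate 2 (0.0365). The GATAD2A share of the pair was 71.0%, 72.4% and 72.9% in DOX-negative and 79.8%, 75.3% and 77.5% in DOX-positive libraries. The log2 ratio differed by 0.42 (exact permutation p = 0.1, adjusted 0.175). CDK2AP1, a small subunit of the complex, had 132 ± 4.19 and 136 ± 4.81 CPM (log2 fold change 0.043, edgeR adjusted p = 0.668, and below 0 on TPM that was not rescaled).

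Over the 15 NuRD genes, 3 were called lower (MBD3, RBBP4 and CHD3) and 1 higher (GATAD2A), beside 13.7% and 13% of all genes tested. Summed, the 15 genes reached 2209.8 ± 24.3 CPM in the DOX-negative and 2149.7 ± 43.8 CPM in the DOX-positive group (SD, n = 3), or 97.3% of the DOX-negative mean. For the 7 member subunits alone the sum was 1139.5 ± 32.6 against 1049.7 ± 38.9 CPM, or 92.1%. The sums were not tested. In the ratio tests, 4 of 7 pairs were separate between the groups, MBD3/MBD2, RBBP4/RBBP7, CHD4/CHD3 and GATAD2A/GATAD2B, and no pair had an adjusted p below 0.175. The share of separate ratios among other gene pairs was not computed, so 4 of 7 has no background. For single genes, 20.2% of all tested had every DOX-positive CPM below every DOX-negative one.

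**Figure D2:**
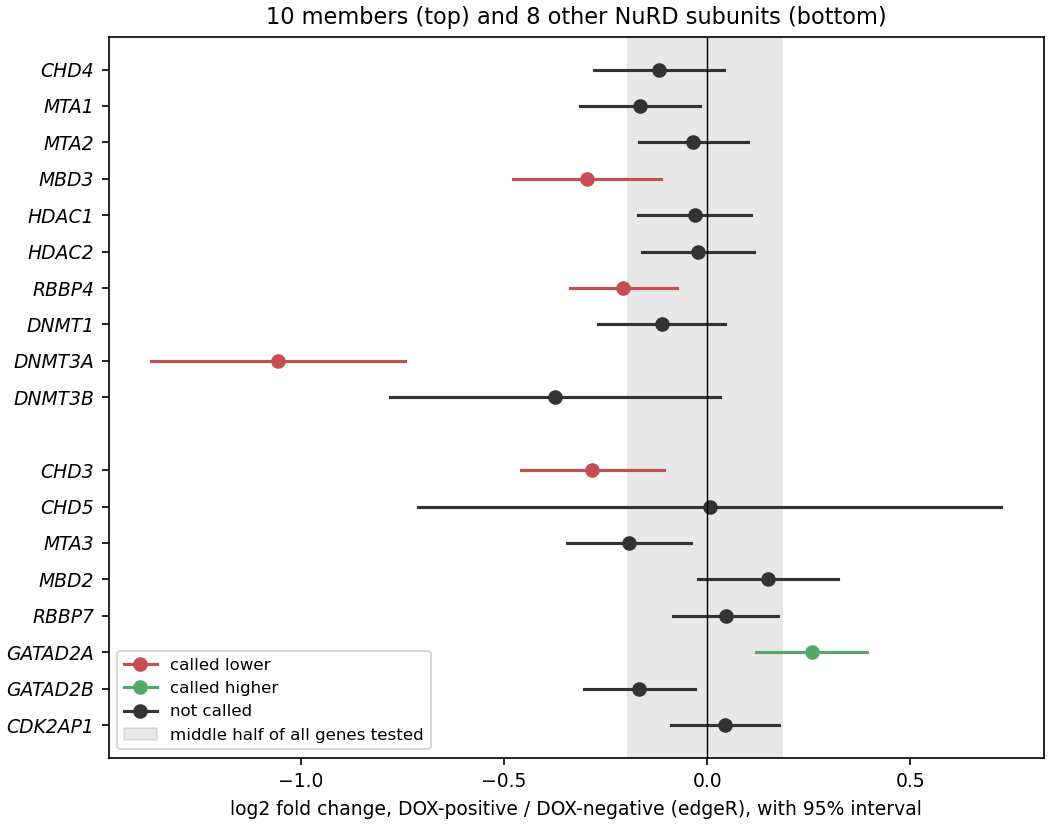
Log2 fold changes of the 10 members and the 8 other NuRD subunits with 95% intervals (horizontal axis), coloured by the edgeR call, with the range between the quartiles of all genes tested in grey. DNMT3A at −1.06 lies farthest from 0, and GATAD2A at 0.26 (−0.14 on TPM that was not rescaled) is the only gene shown that was called higher.

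**Figure D3:**
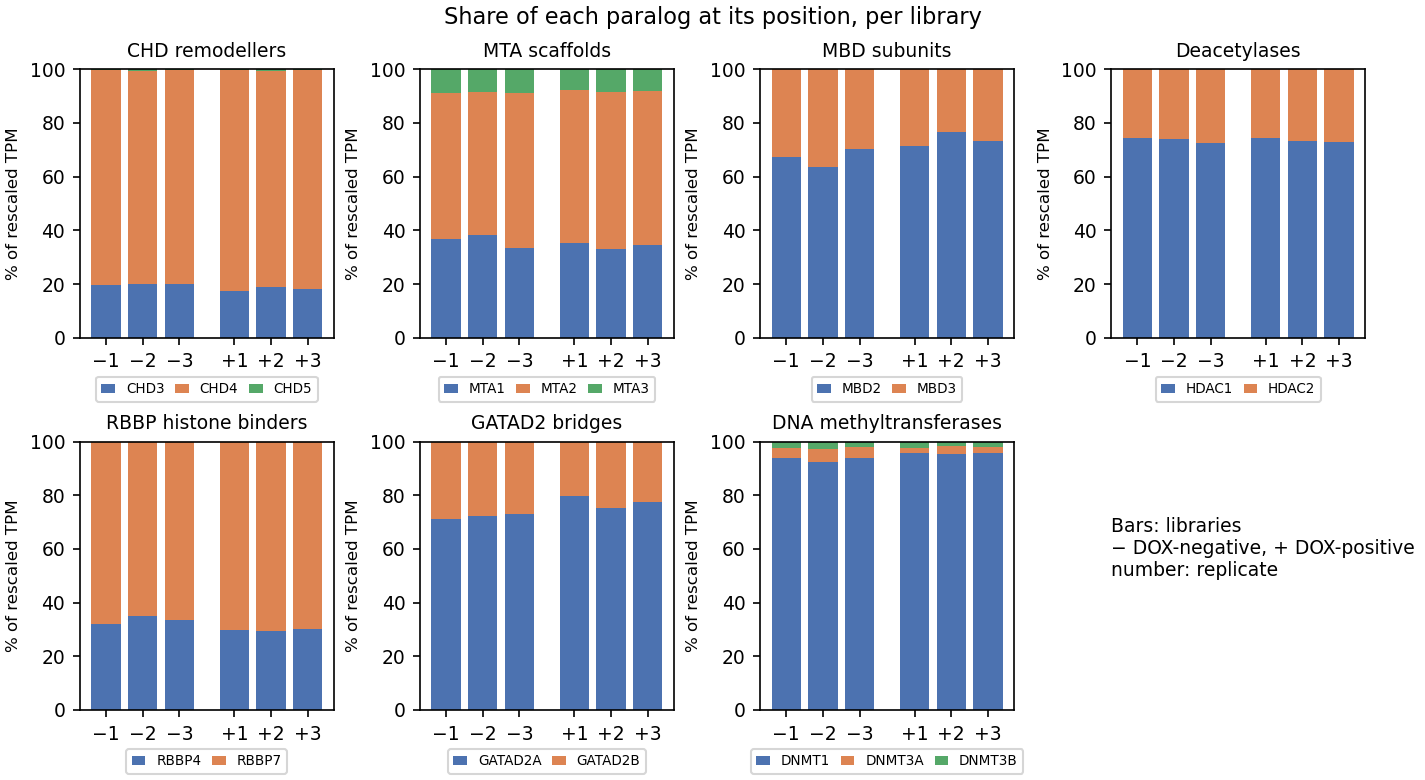
Share of each paralog in the summed rescaled TPM of its position, as stacked bars from 0 to 100% for each library (− DOX-negative, + DOX-positive). The MBD3 share is at most 28.7% in the DOX-positive libraries and at least 29.9% in the DOX-negative libraries, while the HDAC1 share stays between 72.6% and 74.4%.

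Compared per length, as rescaled TPM in DOX-negative cells, the members ran from MTA2 at 174 ± 7.10, DNMT1 at 143 ± 7.28 and HDAC1 at 138 ± 4.34 through MTA1 at 114 ± 9.01, RBBP4 at 105 ± 5.43 and CHD4 at 97.6 ± 12.5 (SD, n = 3). Below these came MBD3 at 49.9 ± 3.01 and HDAC2 at 49.3 ± 1.91, then DNMT3A at 6.41 ± 1.32 and DNMT3B at 3.73 ± 0.686. DNMT1 and HDAC1, MTA1 and RBBP4, RBBP4 and CHD4, and MBD3 and HDAC2 are neighbours that differed by no more than about their spread. In DOX-positive cells MBD3 was at 39.8 ± 3.06, DNMT3A at 3.03 ± 0.392 and DNMT3B at 2.80 ± 0.664. The DOX-positive means of the 2 de novo enzymes thus lay within their spread. In DOX-positive replicate 2 DNMT3A was still above DNMT3B (3.42 against 2.08), and their ratios overlapped between the groups, as given above. HDAC2 exceeds HDAC1 in CPM but not per length, because the deposited TPM imply an HDAC2 transcript 3.68 times as long.

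Other corepressor complexes share HDAC1, HDAC2 and RBBP4 with NuRD or use another class I deacetylase. Of 16 such genes, 5 were lower and 2 higher in DOX-positive cells, with a median log2 fold change of −0.065, beside backgrounds of 13.7% and 13%. TBL1XR1, the exchange factor of the NCOR complexes, fell by 0.65 (edgeR adjusted p = 7.13e-08), from 391, 372 and 380.1 CPM to 229, 255 and 246 CPM. NCOR1, its partner corepressor, fell by 0.29 (adjusted p = 0.00241), and ARID4B of the SIN3 complex fell by 0.34 (adjusted p = 0.00411). SIN3B and SUDS3, also of SIN3, were the other 2 called lower. The SIN3B call was lost without replicate 1 or replicate 2 of either group, with the replicate block and by limma on rescaled TPM. The SUDS3 call was lost without DOX-negative replicate 3. RCOR1, the scaffold that joins HDAC1 or HDAC2 to the demethylase KDM1A, rose by 0.30 (edgeR adjusted p = 0.00101), though its value was −0.089 on TPM that was not rescaled. MIER1, which recruits HDAC1 and HDAC2, was the second gene called higher, and its sign also turned on TPM that was not rescaled. The MIER1 call was also lost by limma on rescaled TPM. The catalytic deacetylases HDAC3 and HDAC8 had log2 fold changes of 0.0085 and 0.018 and were not called.

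The list of genes that maintain, read or remove DNA methylation had 3 of 12 tested genes lower and none higher, with a median of −0.17. Over all genes tested, 13.7% were lower and 13% higher. ZBTB33 (Kaiso), a reader of methylated DNA, fell by 0.34 (edgeR adjusted p = 0.00424), from 57.7, 49.0 and 55.3 CPM to 41.7, 45.5 and 40.3 CPM. UHRF2, a paralog of UHRF1, fell by 0.28 (edgeR adjusted p = 0.0124), a call lost without DOX-negative replicate 1 (0.0528) or DOX-positive replicate 1 (0.0683). UHRF1 had a log2 fold change of −0.22 (adjusted p = 0.0875) and the remodeller HELLS −0.22 (adjusted p = 0.0586), and neither was called. The oxidases TET1, TET2 and TET3 had log2 fold changes of −0.15, 0.17 and −0.17 and were not called. Without DOX-positive replicate 2, TET2 was called higher. DNMT3L, the inactive cofactor of the de novo enzymes, had at most 1 count in any library and was not tested.

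DNMT1 and UHRF1 are expressed with DNA replication, so replication genes are given beside them. Of 12 replication and cycling genes, 4 were lower and none higher, with a median of −0.15, beside backgrounds of 13.7% and 13%. RFC4 of the clamp loader fell by 0.42 (edgeR adjusted p = 0.000942), and the helicase subunits MCM4, MCM5 and MCM3 fell by 0.41 (adjusted p = 0.000164), 0.35 (0.00265) and 0.26 (0.0148). The MCM3 call was lost without DOX-positive replicate 2 (log2 fold change −0.16, edgeR adjusted p = 0.0845) or DOX-negative replicate 3 (−0.21, adjusted p = 0.0717). The cycling marker MKI67 had a log2 fold change of 0.065 (adjusted p = 0.513) and PCNA one of −0.058 (adjusted p = 0.610). The 6 MCM genes summed to 1229, 1255 and 1374 CPM in DOX-negative and 1119, 934 and 1113 CPM in DOX-positive libraries. DOX-positive replicate 2 was lowest for this sum, and also for DNMT1 at 228 CPM, for UHRF1 at 85.8 CPM against 115 to 131 CPM elsewhere, and for HELLS at 70.3 CPM. The part of this library's low replication values in the DNMT1 level was not tested.

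**Figure D4:**
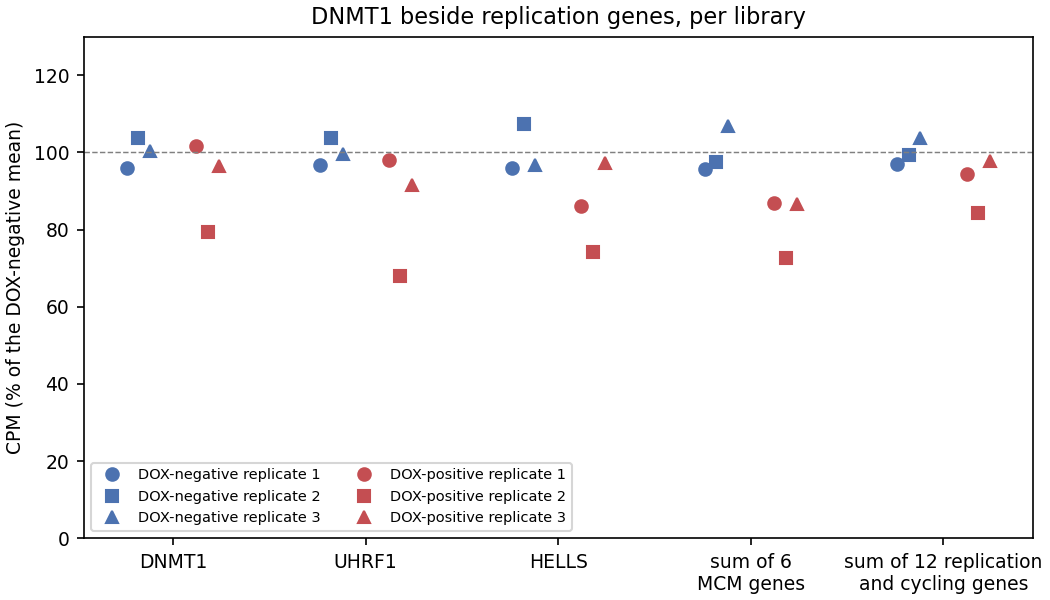
CPM of DNMT1, UHRF1 and HELLS, and summed CPM of 6 MCM genes and of all 12 replication and cycling genes, per library, as a percentage of the DOX-negative mean (vertical axis). DOX-positive replicate 2 (red squares) is the lowest library in every column, and DOX-positive replicates 1 and 3 lie within the DOX-negative range for DNMT1.

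Genes whose promoters are commonly methylated were read as a description, since no methylation was measured. Of 13 genes often methylated in carcinomas, 10 were tested, 3 were higher and 3 lower, beside backgrounds of 13% higher and 13.7% lower. CDH1 (E-cadherin) rose by 0.92 (edgeR adjusted p = 3.01e-08), from 41.8 ± 3.81 to 79.2 ± 4.94 CPM, and APC rose by 0.27, with the sign turned on TPM that was not rescaled. PTGS2, the third gene called higher, had 7, 6 and 1 counts without DOX and 15, 20 and 26 counts with DOX (log2 fold change 2.16, edgeR adjusted p = 0.00592). It passed the filter on low counts through its DOX-positive values, so a call could only be in this direction. With at least 10 counts required in every library it was not tested, and 2 genes of the list were higher and 3 lower. GSTP1, a detoxifying transferase that is often methylated in prostate cancer, fell by 0.64 (adjusted p = 1.23e-05), from 40.2 ± 1.40 to 25.8 ± 1.75 CPM. SFRP1 fell by 0.63 (adjusted p = 1.07e-05) and DAPK1 fell by 0.47. RARB and TIMP3 had 0 counts in all 6 libraries.

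Of 12 germline genes that promoter methylation holds silent in most tissues, only STK31 had enough counts to be tested (log2 fold change 0.24, edgeR adjusted p = 0.316). DAZL, MAGEA1, MAGEA4 and MAGEB2 had no count in any of the 6 libraries, and at 3 counts per library this leaves room for 0.129 to 0.199 CPM. The remaining 7 had 10 counts or fewer in each library and were not tested. Each had a higher mean CPM in the DOX-positive group, and the share among other genes at this level was not computed. All counts of TEX101 (2), TDRD1 (4) and DPPA3 (1) came from DOX-positive replicate 3. TDRD9 had 2, 0 and 5 counts with DOX and 0 in each library without it. DDX4 had 0, 1 and 1 counts without DOX and 1, 3 and 0 with DOX. MAEL had 4, 10 and 1 counts without DOX and 5, 6 and 7 with DOX. SYCP3, a protein of the meiotic chromosome axis, was the only one of the 7 without overlap in CPM, with 2, 5 and 4 counts against 9, 6 and 4 counts. These were 0.110, 0.256 and 0.199 CPM against 0.392, 0.313 and 0.269 CPM. The share of other genes at this level without overlap was not computed, and SYCP3 was named after its values were seen.

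**Figure D5:**
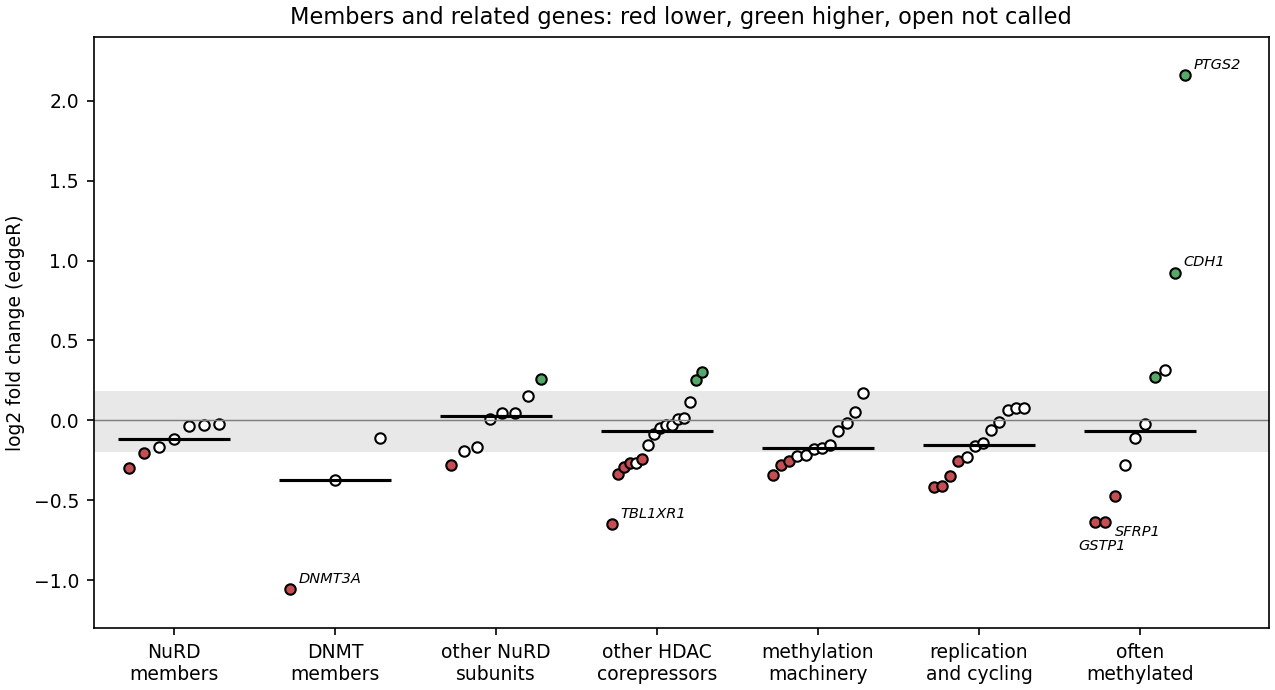
Log2 fold changes (vertical axis) of the members and of 5 related gene lists, each point a tested gene, with the list median as a black bar, calls filled in red (lower) or green (higher), and the range between the quartiles of all genes tested in grey. The NuRD members sit between −0.30 and −0.022, and the often methylated genes spread from −0.64 to 2.16. On TPM that was not rescaled GATAD2A, RCOR1, MIER1 and APC, shown as higher, were below 0.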

How the data were processed

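Poly(A)-selected stranded mRNA libraries were sequenced from 3 DOX-negative and 3 DOX-positive cultures, grouped by sample title. The authors deposited gene counts from reads aligned with STAR (GRCh38), and deposited TPM values in a second table. Its length convention, the strand setting and the annotation version are not given in the sources used here. Counts were analysed with edgeR 4.0.16 in R 4.3.3 (filterByExpr, TMM factors 0.986 to 1.03, quasi-likelihood test, group only, two-sided, Benjamini-Hochberg adjustment over 14292 genes, threshold 0.05). CPM are scaled by TMM, and intervals are 95%. Ratios of paralogs were compared as log2 TPM ratios by an exact two-sided permutation test over the 20 assignments of libraries. Alternatives used DESeq2 1.42.0, other scalings and filters, limma 3.58.1 on log2(TPM + 1), log2(TPM + 0.1) and rescaled TPM, a replicate block, and each library left out. Rescaling removed RN7SL1, RN7SL2, RN7SL3, RN7SK and RPPH1. Named genes were MUC1, the members, the other NuRD subunits, both genes of each pair, and from each other list up to 4 called genes of largest change and those with 0 counts. SIN3B, SUDS3, MIER1, APC, DAPK1 and the uncalled genes of those lists were named in addition after their values were seen. The members and lists were chosen with earlier results of these data known. The tests were checked on simulated data. Replicates differed by more than counting noise (chi-square per degree of freedom 3.76 to 20.2), so no library was a duplicate. Floors cover counting error only. Some genes that the naming rule would include are not reported here.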

Additional observations from a re-analysis of the deposited data

How the results depend on the processing

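DNMT3A was called lower in all 15 alternatives. On TPM that was not rescaled, all genes shifted by a median of −0.32 (log2(TPM + 1)) or −0.39 (log2(TPM + 0.1)), and 6.77% or 7.11% of 443 or 408 calls were higher, against 48.8% of 3816 in edgeR, 43.0% of 3097 on rescaled TPM and 39.3% of 3836 with total counts. On these 2 scales 1 and 1 members were called, 0 and 0 other NuRD subunits (limma, 0 and 1 at an unadjusted p under 0.05, against 2 by edgeR and by DESeq2), 1 and 1 other corepressors, 0 and 0 DNA methylation genes (4 and 4 unadjusted), 0 and 0 replication genes (6 and 6 unadjusted), and 1 and 2 often methylated or germline genes. The signs turned for MBD2 (−0.23 and −0.24), RBBP7 (−0.34 and −0.35), GATAD2A (−0.14 and −0.14), CDK2AP1 (−0.35 and −0.35), RCOR1 (−0.089 and −0.090) and CHD5 (−0.094 and −0.30). CHD5 also turned with total counts (−0.032), the replicate block (−0.0087) and rescaled TPM (−0.014). Other counts that moved were 4 other NuRD subunits with total counts and 1 on rescaled TPM, and 6 DNA methylation genes with total counts and 5 without a filter. The cause of these moves was not tested.

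With each library left out in turn, 1 to 3 members, 1 to 4 other NuRD subunits and 1 to 4 DNA methylation genes were called. Without DOX-positive replicate 2, 1 member (DNMT3A) was called and 4 other NuRD subunits. Without DOX-negative replicate 2, 1 other NuRD subunit was called, as without DOX-positive replicate 1, and without DOX-negative replicate 1, 1 DNA methylation gene. The log2 fold change ranged from −0.063 to 0.023 for MTA2, −0.063 to 0.030 for HDAC2 and −0.34 to 0.42 for CHD5, and the HDAC1/HDAC2 difference from −0.051 to 0.018. Same-numbered libraries of the groups did not deviate together (correlations −0.070, −0.145 and −0.037), so the numbers were not taken to pair them. The replicate block left 3158 calls over all genes and 2 members, with RBBP4 lost. Without DOX-positive replicate 2 the values of DNMT1 and DNMT3B were −0.012 and −0.19. Few reads stood behind CHD5, PTGS2 and the germline genes, and counting error was not separated from the spread between libraries.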
